A study of Rattus norvegicus with 5 samples.

Results

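Cells that received a negative control lentivirus were set against cells that received none. BRL-3A is a line from Buffalo rat liver that the labels call normal rat hepatocytes. It was given the negative control of the Tmub1 overexpression lentivirus, the negative control of the Tmub1 knockdown lentivirus, or no virus. RNA of the transduced cells was taken 48 h after transduction. No time was given for the cells without virus, so a match in culture time is not known. Each group was 1 sample on 1 single-colour Agilent array, so the comparison used 3 of the 5 arrays of the series; the other two were cells given the Tmub1 overexpression and the Tmub1 knockdown virus, which are shown beside the controls where they help. What the negative control viruses carry, and what share of the cells took them up, was not analysed here. Of 30164 probes measured on the 3 arrays, 26438 had the scanner's mark for signal well above background on at least 1 of them. Through the RefSeq table for rat, 15089 genes were read from all measured probes, each from its brightest probe. Of these genes 13587 were well above background on at least 1 of the 3 arrays. The other 1502 were not called, but they count in the medians of lists and of all genes.

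The normal array had a scan of its own, while the 4 arrays of transduced cells shared another. Virus and scan therefore cannot be told apart in any difference from normal cells. With 1 array a group there is no replicate, no p-value and no spread between cultures; scanner error covers the reading of the spots alone. The normal array was also the array with most probes well above background, 86.5% against 66.8% and 73.0% with the overexpression and knockdown negative controls. Its negative control spots had a net signal of 26.7 intensity units, against 48.1 and 48.7. By the scanner software's own check this signal was in range on the normal array and out of range on both negative control virus arrays. The bright corner spots had a median of 62112 on normal, against 22484 and 18544. Of 35 control probes with no rat target, 23 were well above background on the normal array, 3 on the overexpression and 7 on the knockdown negative control array. Of those 23, 22 were lower with both viruses, and their median difference was -1.5 and -1.70 log2. The 23 were picked for being bright on normal, which by itself favours lower values elsewhere. Whether RNA for the control probes was added is not known. The part of these array differences in the results was not tested.

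A lentivirus delivers an RNA genome that is copied into DNA and inserted into the host chromosomes. Cells sense viral RNA and DNA, or nucleic acid that comes with a virus preparation, through receptors that switch on type I interferon; interferon in turn acts through JAK kinases and the factor Irf9 on a set of antiviral genes with a shared promoter element. BRL-3A cells are known for secreting insulin-like growth factor II and for the binding protein Igfbp2. Negative control viruses are used to separate what a gene insert does from what transduction itself does.

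At least 2.5-fold from normal cells, in the same direction with both viruses, were 1307 genes. Of these, 566 were at least 2.5-fold higher and 741 at least 2.5-fold lower with both. The fold of 2.5 is that of the series' design text; the brighter value had to be well above background, and a dim value below the lowest signal called above background was raised to it, which makes the fold a lower bound. Against normal cells 19.7% of 12875 readable genes passed with the overexpression negative control (8.09% higher, 11.6% lower) and 17.7% of 13172 with the knockdown negative control (7.09% higher, 10.6% lower). Both together were passed by 10.2% of 12847 genes, 4.41% higher and 5.77% lower. Shares of all genes called, as given below, are out of the genes readable in that comparison. List counts are out of all members on the array, readable or not, so the bases are unlike. The 2 negative controls were 2.5-fold apart from each other in 8.9% of 11775 genes, the knockdown negative control being higher in 5.04% and lower in 3.86%. Since both comparisons share the normal array, a low or high value there moves both in the same direction. The same limit was passed on all 4 transduced arrays by 376 of the 566 higher genes and 489 of the 741 lower ones, which is 2.93% and 3.81% of 12830 genes.

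**Figure D1:**
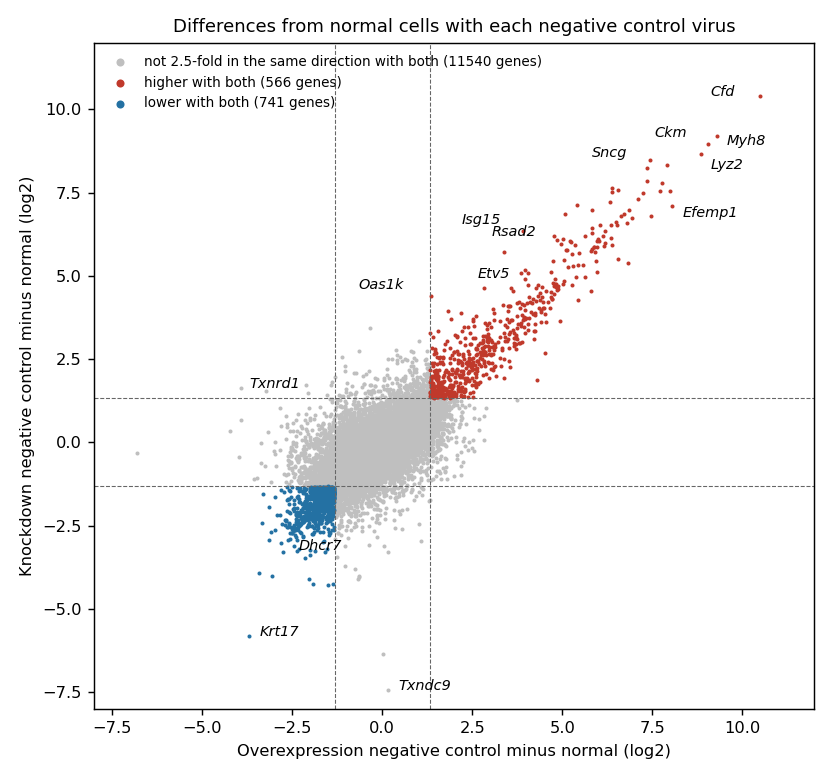
Difference from normal cells (log2) with the overexpression negative control (x axis) and the knockdown negative control (y axis), 1 point per gene; dashed lines mark 2.5-fold. Of the 566 genes higher with both 190 are at least 8-fold higher, and of the 741 lower with both 3 are at least 8-fold lower. Values of genes dim on an array are lower bounds.

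The higher and the lower genes differed in size and in brightness. Of the genes higher with both viruses, 190 were at least 8-fold and 66 at least 32-fold higher, and of the genes lower with both, 3 were at least 8-fold (Krt17, Mep1a and Vom2r8, a vomeronasal receptor named after its value was seen) and 0 at least 32-fold lower. The 13587 genes well above background on at least 1 of the 3 arrays were put into 5 equal groups by their mean level. With the overexpression negative control the median difference from normal went from -1.26 log2 in the dimmest group through -0.81, -0.34 and 0.22 to 0.65 in the brightest. With the knockdown negative control it went from -1.37 through -0.58, -0.19 and 0.13 to 0.27. Of the 741 lower genes, 642 (86.6%) lay in the 2 dimmest groups and 15 in the 2 brightest. Of the 566 higher genes, 224 (39.6%) lay in the 2 dimmest groups. For 376 of the 741 lower genes and 114 of the 566 higher ones at least 1 of the differences is a bound.

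**Figure D2:**
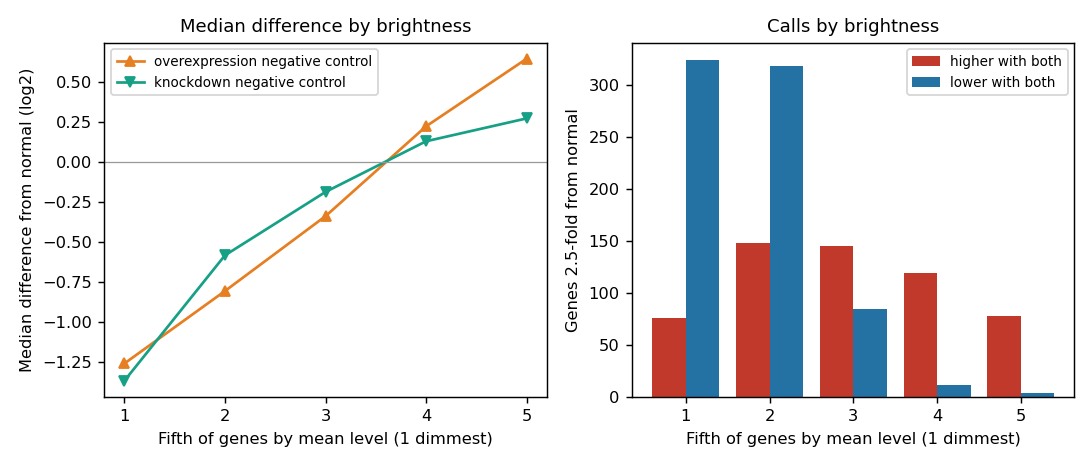
Left, median difference from normal cells (log2) in 5 equal groups of genes ordered by mean level, for each negative control. Right, number of genes 2.5-fold higher or lower with both in each group. The medians run from -1.26 and -1.37 in the dimmest group to 0.65 and 0.27 in the brightest, and 642 of 741 lower calls sit in the 2 dimmest groups.

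How many genes were called lower depended on the scaling of the arrays. Quantile normalization left 727 higher and 185 lower, so that the share of higher calls went from 43.3% to 79.7%; cyclic loess gave 705 and 102 (87.4%), the median of each array 1125 and 162 (87.4%), and the log2 values deposited by the authors gave 732 and 163 (81.8%). Taking the 75th percentile over the probes well above background on all 3 arrays gave 454 and 1222 (27.1%). Of the 566 higher genes 509 kept their call with quantile normalization and 506 with cyclic loess; of the 741 lower genes 171 and 94 did. Calls that ended under another setting are given below for genes chosen by the naming rule, and were not followed for the others. Of the genes described below, the calls of Mxd3, Rem2, Aurkb, Oas3, Cenpa, Egr2 and Fosl1 ended with normexp alone. Those of Cfd, Myh8, Myh4, Lyz2, Fabp4, Retn, Lpl, Rbp4, Pdgfra and Mep1a ended only where probes had to be well above background on all 3 arrays, which these were not.

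**Figure D3:**
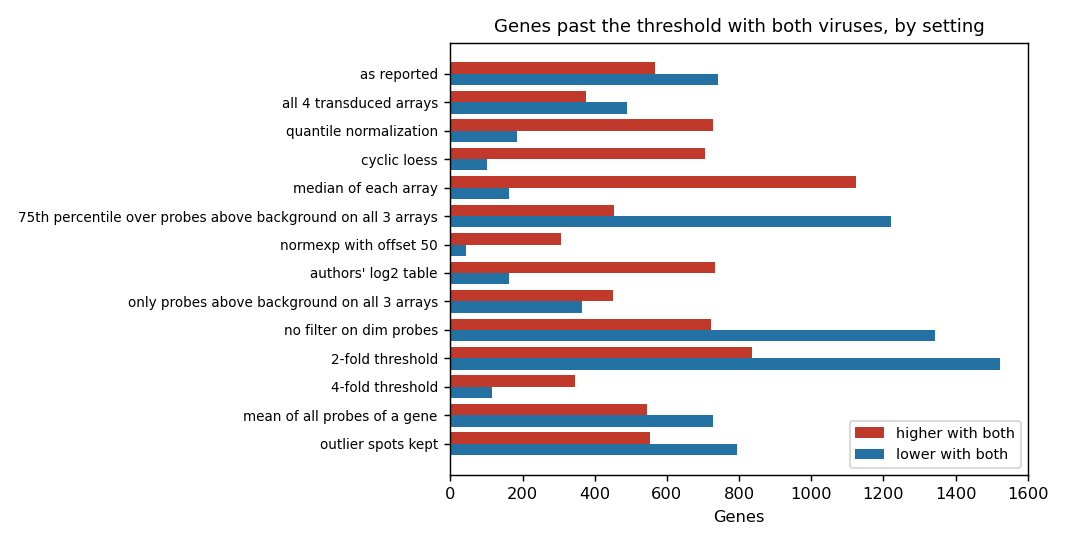
Number of genes (x axis) at least 2.5-fold higher (red) or lower (blue) than normal cells with both negative controls, as reported and under each other setting. The higher calls stay between 307 and 1125, while the lower calls range from 44 to 1524.

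Genes of fast skeletal muscle stood at the top of the higher genes. Of 41 such genes on the array 24 were higher with both viruses and 0 lower, beside 4.41% and 5.77% of all genes, and 23 of the 24 passed on all 4 transduced arrays. The list's median difference was 2.80 with the overexpression and 2.66 with the knockdown negative control, where all genes had -0.10 and -0.14. The list was drawn up with some of these values known. Under the 10 other settings between 20 and 26 members were higher and at most 1 lower. In bulk RNA, fewer cells of a type and less RNA per cell cannot be told apart.

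Ckm, the creatine kinase of muscle that buffers ATP, had a level of -5.87 on the normal array, 3.19 on the overexpression negative control, 3.08 on the knockdown negative control, 3.05 with Tmub1 overexpression and 2.88 with Tmub1 knockdown. A level is the log2 signal of the probe relative to its array's 75th percentile. The 4 transduced arrays lay within 0.31 log2 of each other and the normal array far below, at 532-fold and 493-fold lower than the 2 negative controls, a difference of 9.05 and 8.95 log2 with a scanner error of 0.29 each. Tnnc2, the calcium-binding subunit of fast troponin, was at -5.46 on normal and at 2.51, 2.07, 2.13 and 2.43 in the same order of transduced arrays. Acta1, the actin of skeletal muscle fibres, was at -6.19 and at 1.15, 2.04, 1.25 and 0.13. Both followed Ckm in that no transduced array came near the normal one. Myl11, the fast regulatory light chain, was 92.1-fold and 92.9-fold higher with the 2 negative controls and Cox6a2, the muscle form of a cytochrome oxidase subunit, 105-fold and 117-fold higher. Myh8, the perinatal myosin heavy chain, was not well above background on normal cells and at least 629-fold and 590-fold higher; Myh4, an adult fast myosin, was at least 83.3-fold and 60.7-fold higher.

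Muscle regulators did not share this pattern. Myog was at -1.20 on normal and at -2.12 and -2.0 with the negative controls, and Myf5 at -1.0, -1.41 and -1.79 (its other probe was higher by a mean of 1.19); both drive muscle differentiation. Myod1 and Pax7, which specify muscle cells, were not called either, at -5.55 and -6.05 on normal, -5.59 and -7.48 with the overexpression and -4.35 and -8.14 with the knockdown negative control. Sln and Smpx, of the sarcoplasmic reticulum and the cytoskeleton of muscle, were the members nearest to no difference, at mean differences of 0.07 and -0.25.

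The promoters of the 3 muscle genes with the largest differences among those with a listed promoter are printed, since their genes moved together. Each runs from 250 bases before the start to the base before it. Capitals mark TATAAA on either strand, the core of the TATA box. They lie on build GRCr8 at chr1:88189211-88189460 (plus strand), chr3:173935340-173935589 (minus strand) and chr19:68784195-68784444 (minus strand), while the array was designed on rn4. The letters were found in 13 of 34 listed muscle promoters and in 13.1% of all 27457. Among the 3 shown they were found in Acta1 alone, at position -29.
Ckm: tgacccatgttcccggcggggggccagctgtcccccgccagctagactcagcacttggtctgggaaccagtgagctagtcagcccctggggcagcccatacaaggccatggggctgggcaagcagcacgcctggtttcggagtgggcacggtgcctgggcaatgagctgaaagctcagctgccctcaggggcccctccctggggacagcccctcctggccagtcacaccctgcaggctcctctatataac
Tnnc2: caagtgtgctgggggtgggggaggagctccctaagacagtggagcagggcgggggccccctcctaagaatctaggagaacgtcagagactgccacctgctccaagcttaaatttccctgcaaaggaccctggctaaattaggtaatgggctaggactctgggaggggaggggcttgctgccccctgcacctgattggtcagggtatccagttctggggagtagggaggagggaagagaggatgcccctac
Acta1: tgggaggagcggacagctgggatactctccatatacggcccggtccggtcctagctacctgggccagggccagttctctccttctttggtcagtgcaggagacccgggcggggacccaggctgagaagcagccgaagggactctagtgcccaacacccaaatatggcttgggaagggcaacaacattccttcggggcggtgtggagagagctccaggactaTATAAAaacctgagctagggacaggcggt

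Fat cell genes were higher in the same way. Of 23 adipocyte genes 14 were higher and 1 lower with both viruses, beside 4.41% and 5.77% of all genes. The medians were 1.93 and 2.92, and the other settings gave 9 to 16 higher. Cfd, the complement protease adipsin, is secreted by fat: it was not well above background on normal (-7.29) and at 3.31, 3.20, 2.65 and 2.98 on the overexpression negative control, knockdown negative control, overexpression and knockdown arrays. This made it at least 1450-fold and 1350-fold higher with the 2 negative controls. Fabp4, the fatty acid carrier of adipocytes, was at -7.09 on normal and at 0.82, 1.25, 0.45 and 0.67. Sncg, a synuclein of fat and neurons, was 172-fold and 355-fold higher, and Adipoq, the hormone adiponectin, 26.9-fold and 43.7-fold. Lpl, the lipase that clears lipoproteins, was at least 49.4-fold and 72.6-fold higher, and Retn, the hormone resistin, at least 65.6-fold and 91.8-fold. Pparg, the master regulator of fat cells, was higher too, from -3.40 on normal to -1.86 and -0.05, and it lay at -2.37 and -2.35 with Tmub1 overexpression and knockdown. Ucp1, the uncoupler of brown fat, was the lower member, at least 3.63-fold and 4.17-fold, and that call ended under 6 of the 10 settings. Slc2a4, the insulin-regulated glucose carrier, was at -0.02, -0.05 and -0.21.

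**Figure D4:**
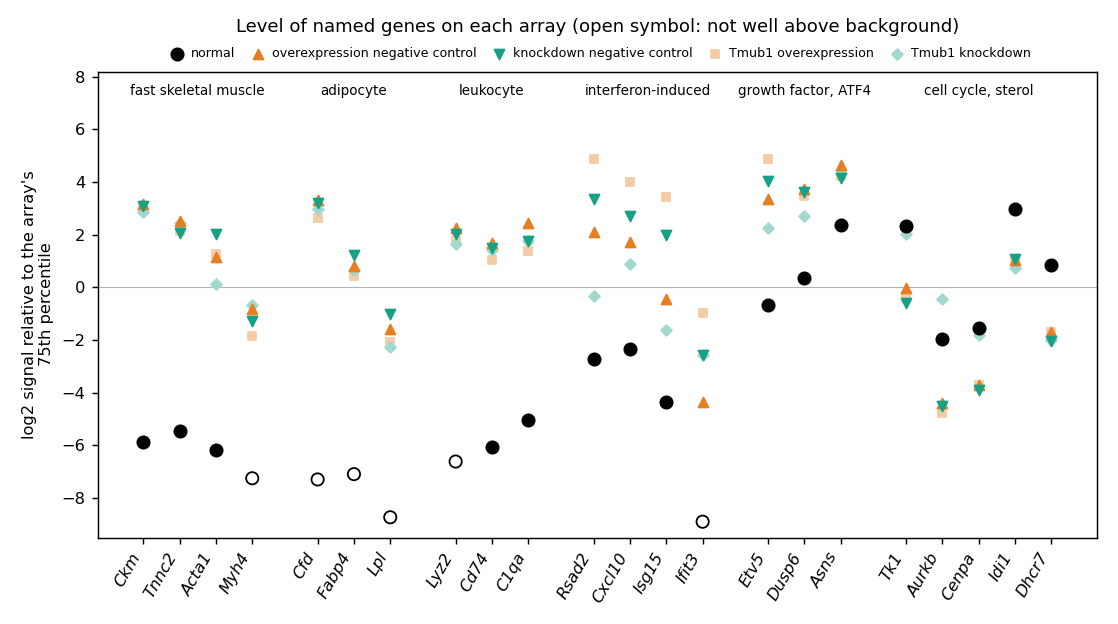
Level of 22 genes (log2 signal relative to the array's 75th percentile, y axis) on the normal array (black), the 2 negative controls (orange, green) and the 2 Tmub1 arrays (pale); open symbols were not well above background. Muscle, fat and leukocyte genes lie close together on all 4 transduced arrays and far above normal (Ckm 2.88 to 3.19 against -5.87), while interferon-induced genes spread widely among the transduced arrays (Isg15 from -1.61 to 3.43).

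The leukocyte list was mixed. Of 32 leukocyte and MHC class II genes 12 were higher and 3 lower, beside 4.41% and 5.77% of all genes. The medians were 0.74 and 0.88. Lyz2, the lysozyme of macrophages and neutrophils, was at -6.61 on normal, not well above background, and at 2.25, 2.04, 1.79 and 1.65 on the transduced arrays in the order above, at least 465-fold and 402-fold higher with the negative controls. Cd74, the invariant chain of MHC class II, was at -6.05 and at 1.67, 1.5, 1.06 and 1.43, or 211-fold and 187-fold higher. RT1-Da, a class II chain, was 27.6-fold and 29.7-fold higher and Aif1, of macrophages, 11-fold and 13.0-fold. C1qa, a chain of the first complement component, was 177-fold and 110-fold higher, with C1qb 38.1-fold and 64.5-fold and C1qc 62.7-fold and 65.9-fold higher; C1qb and C1qc were named after their values were seen. Ptprc, the common leukocyte antigen, and Cd4, the helper T cell coreceptor, went the other way: Ptprc was at -3.72 on normal and at -5.11 and -5.38 by its brightest probe, while its other probe was higher by a mean of 5.72 log2, and Cd4 at -2.59, -4.57 and -4.57. Clec4f, a lectin of liver macrophages, was the third lower member, 2.57-fold and 2.67-fold, a call that ended under 5 settings, and that of Cd4 ended with cyclic loess and normexp. RT1-DMb, which helps load class II molecules, was at -1.01 on normal and at -1.63 and -1.33, and Laptm5, a lysosomal protein of blood cells, at -0.55, -0.04 and 0.05. Cd3e was not well above background on any of the 3 arrays.

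Other tissue markers were higher in part. Hbb, a beta globin, was 219-fold and 221-fold higher by its brighter probe (its other probe gave a mean difference of 2.85 log2), yet it was the 1 called member of 12 erythroid genes, whose medians were -0.70 and -0.79. In the fibroblast and matrix list 7 of 31 were higher and 1 lower, beside 4.41% and 5.77% of all genes. Dcn, the matrix proteoglycan decorin, was at -4.21 on normal and at 1.81, 1.83, 1.53 and 1.17 on the transduced arrays. Pdgfra, a growth factor receptor, was at least 60-fold and 52.7-fold higher. Of the collagens, Col1a1 was at 6.74 on normal and 7.71 and 7.21 with the negative controls, and Col3a1 at 7.43, 8.07 and 7.51, neither of them called. Col6a2, of the beaded filaments around cells, was 8.64-fold and 4.84-fold higher and kept its call under all 10 settings. Of 12 endothelial genes 4 were higher and 0 lower, beside 4.41% of all genes, with medians of 0.47 and -0.20; 3 of the 4 were not well above background on normal, and the count was 0 with normexp and 1 where all 3 arrays had to be above background. Pecam1, a junction protein, was at least 43.1-fold and 19.4-fold higher, a call that ended under both, whereas Cdh5, of endothelial junctions, was at -1.58, -1.33 and -1.5. Smoc2 and Efemp1, secreted matrix proteins, were 150-fold and 178-fold and 264-fold and 138-fold higher. The other probe of Smoc2 gave a mean difference of 3.16 log2.

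All 66 genes at least 32-fold higher with both negative controls were also past 2.5-fold on the 2 Tmub1 arrays. Of these, 28 were not well above background on the normal array. Their levels on the 4 transduced arrays spanned a median of 1.07 log2, against 1.24 for all genes. The 66 were picked for high values on 2 of these 4 arrays. All genes include 1502 not well above background on any of the 3 arrays, so the 2 spreads are of unlike sets. Muscle, fat, leukocyte, matrix, erythroid and hepatocyte lists held 10, 7, 3, 2, 1 and 1 of the 66 genes. The summed signal of the muscle list was 151, 140, 116 and 86.0 times the 75th percentile on the overexpression negative control, knockdown negative control, overexpression and knockdown arrays, and 34.6 times on normal. The adipocyte list had 29.3, 33.5, 20.1 and 23.7 against 4.90, and the leukocyte list 25.9, 25.0, 18.6 and 18.9 against 8.27. These sums move with every virus and with the scan, and their part in the results below was not tested.

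The hepatocyte label was checked against 48 liver markers, which were dim. Of these 36 were well above background on normal cells, 28 with the overexpression and 26 with the knockdown negative control. Over all probes that mark was given to 86.5%, 66.8% and 73.0% in the same order. The median level of the markers was -4.76, -4.74 and -5.42. Alb, the serum albumin that marks hepatocytes, was not well above background on the normal or the overexpression negative control array, at -6.65 and -5.07, and stood at -4.40 on the knockdown negative control. The liver factor Hnf4a was at -3.19, -3.73 and -3.96. With both viruses 4 liver markers were higher and 6 lower, where 34 of the 48 could be read. Of all readable genes 4.41% were higher and 5.77% lower. Rbp4, the retinol carrier that fat also makes, was at least 163-fold and 232-fold higher, and Tf, the iron carrier transferrin, 19.2-fold and 18.8-fold. Cyp2e1, a drug-metabolizing oxidase, was 7.17-fold and 4.54-fold lower and kept its call under all 10 other settings. The calls for G6pc1, Fbp1, Fgg and Cyp8b1 ended under 5 or 6 settings each, quantile normalization, cyclic loess, the array median, normexp and the authors' table among them, and that for Tdo2 with cyclic loess and normexp. Igf2 and Igfbp2, which BRL-3A cells are known for, were among the bright genes: Igf2 was at 7.67 on normal and at 8.45 and 7.80, and Igfbp2 at 7.09, 7.90 and 7.06.

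Among interferon-induced antiviral genes 39 of 48 had positive differences with both negative controls, and 18 were called higher with both, beside 4.41% of all genes. Over all genes 5241 of 15089 had positive differences with both. Of 48 on the array 19 were higher and 2 lower with the overexpression negative control, 33 and 1 with the knockdown negative control, and 18 and 1 with both. The medians were 1.24 and 2.06. The 2 negative controls differed by 2.5-fold for 10 of the 48, each time higher with the knockdown negative control, where 5.04% of all genes were that much higher. With both viruses the count of higher genes was between 12 and 24 under the other settings.

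Promoters are shown for the 3 antiviral genes ranked highest by size among those with a listed promoter. Isg15 and Rtp4 had none listed. They are shown because interferon is known to act on antiviral genes through a common element. Capitals mark GAAA, any 2 bases and GAAA again, or the reverse complement, the core of the interferon-stimulated response element. On GRCr8 the windows are chr6:48788121-48788370 (minus strand), chr14:15988816-15989065 (plus strand) and chr1:241527076-241527325 (plus strand).
Rsad2: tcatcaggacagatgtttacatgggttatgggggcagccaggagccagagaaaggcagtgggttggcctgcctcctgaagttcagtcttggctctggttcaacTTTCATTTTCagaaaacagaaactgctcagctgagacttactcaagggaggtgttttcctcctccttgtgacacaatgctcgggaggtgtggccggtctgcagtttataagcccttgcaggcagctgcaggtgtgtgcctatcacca
Cxcl10: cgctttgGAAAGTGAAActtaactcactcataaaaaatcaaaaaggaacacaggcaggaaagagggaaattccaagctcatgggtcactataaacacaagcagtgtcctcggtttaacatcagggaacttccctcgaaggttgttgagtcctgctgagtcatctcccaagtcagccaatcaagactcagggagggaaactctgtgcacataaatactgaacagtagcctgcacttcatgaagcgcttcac
Ifit3: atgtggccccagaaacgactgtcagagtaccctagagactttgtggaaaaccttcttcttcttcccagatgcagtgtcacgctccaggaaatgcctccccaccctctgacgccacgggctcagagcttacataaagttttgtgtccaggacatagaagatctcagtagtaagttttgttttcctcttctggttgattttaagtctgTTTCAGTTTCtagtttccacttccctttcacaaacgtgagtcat

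The match starts at position -147 in Rsad2, -243 in Cxcl10 and -44 in Ifit3, counted back from the start site. These letters were present in 25 of 38 listed antiviral promoters and in 3.29% of all promoters. Of the 13 antiviral promoters whose genes were called with both viruses, 9 held the letters. The letters were present in 7 of 16 promoters of the MHC class I list and in 0 of 34 of the muscle list. The antiviral list was made of genes known to answer to interferon, so its share describes the list.

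Rsad2, the antiviral enzyme viperin, was at -2.72 on normal, 2.12 with the overexpression and 3.37 with the knockdown negative control, or 28.7-fold and 68.1-fold higher. It was at 4.87 with Tmub1 overexpression and -0.32 with Tmub1 knockdown, so the transduced arrays spanned 5.20 log2 and all lay above normal. Cxcl10, a chemokine that draws T cells, was at -2.35 on normal and at 1.71, 2.73, 4.01 and 0.88 on the overexpression negative control, knockdown negative control, overexpression and knockdown arrays. Isg15, the ubiquitin-like modifier, was at -4.34 and at -0.43, 2.0, 3.43 and -1.61, or 15.0-fold and 81.6-fold higher with the negative controls. The order of the transduced arrays was the same for these 3 genes. Ifit3, a blocker of viral RNA translation, was not well above background on normal and at least 7.13-fold and 24.6-fold higher. Mx1, the antiviral dynamin-like GTPase, was 5.37-fold and 9.81-fold higher, and the chaperone Rtp4 11.9-fold and 24.6-fold.

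Among the 18 higher antiviral genes, 16 were highest of the transduced arrays with Tmub1 overexpression and 14 lowest with Tmub1 knockdown. All 18 were higher with the knockdown than with the overexpression negative control. Their levels spread over the 4 transduced arrays by a median of 2.65 log2, against 0.96 for the 24 muscle genes and 0.75 for the 12 higher leukocyte genes. Of the other members, Ifitm3, a barrier to virus entry, was at 2.27 on normal and at 1.95 and 2.82, and Ifi47, an interferon-induced GTPase, at -2.62, -2.56 and -2.30. Oas3, a sensor that makes the activator of RNase L, was the lower member, at -2.26 on normal and at -5.02 and -4.70, a call that ended with normexp. Leukocyte markers were summed to 25.9 and 25.0 with the negative controls against 8.27 on normal; their part in the antiviral values was not tested.

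The sensors and signalling genes of the interferon pathway stood mostly under the threshold. Of 27 genes 1 was higher and 1 lower with both, beside 4.41% and 5.77% of all genes, with medians of 0.66 and 0.52. Irf7, the factor that amplifies interferon output, was at -0.58 on normal and at 1.26, 3.37, 4.18 and 0.75 on the transduced arrays, 3.57-fold and 15.4-fold higher with the negative controls. Ifnb1, interferon beta itself, was well above background on normal, at -5.33, and not with the negative controls, at -7.28 and -6.48. It was not called, since the lowest level called above background was -5.72 and -5.92 on those 2 arrays and -7.20 on normal. Jak2, a receptor kinase, was at 1.02, 1.07 and 0.75. The lower member, Irf8, is a bound whose call ended under 6 of the 10 settings.

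Peptide processing for MHC class I was higher with each virus for some members. Of 17 genes 3 were higher with the overexpression and 9 with the knockdown negative control, 3 with both and 0 lower. Over all genes 8.09%, 7.09% and 4.41% were higher in that order. The list medians were 0.96 and 1.38. The immunoproteasome subunits Psmb9 and Psmb8 were 3.25-fold and 3.19-fold, and 2.51-fold and 4.50-fold higher, and the proteasome activator Psme2 2.87-fold and 2.91-fold. The calls for Psme2 and Psmb8 ended under 4 and 3 settings, quantile normalization and normexp respectively among them. Pdia3, a chaperone of the loading complex, was at 1.89, 1.42 and 1.73. In the NF-kB and inflammation list 5 of 42 were higher and 0 lower, beside 4.41% of all genes, with medians of 0.08 and 0.32. The count was 1 with normexp and 2 where all 3 arrays had to be above background, and the calls for Il1b and Ccl3 ended under both. The chemokine Ccl5 was 4.87-fold and 5.66-fold higher, and at 3.62 with Tmub1 overexpression but -0.20 with Tmub1 knockdown, close to its 0.09 on normal. Il1b and Ccl3, products of activated macrophages, were not well above background on normal and at least 8.50-fold and 4.55-fold, and 11.7-fold and 4.76-fold higher. Cxcl1 and Ccl2, chemokines that NF-kB drives, were at 2.58 and 2.38 on normal, 2.49 and 2.59 with the overexpression and 2.50 and 2.42 with the knockdown negative control.

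Cell division genes mostly had negative differences with both negative controls, few of them past the threshold. Over all 15089 genes 6565 had negative differences with both and 5241 positive. Of 47 DNA replication and nucleotide synthesis genes 37 had negative differences with both and 4 positive, with medians of -0.84 and -0.83. Of these 47, 3 were called lower and 0 higher with both, a share near the 5.77% of all genes. Of 38 mitosis genes 5 were lower, beside the same 5.77%, and 0 higher. Their medians were -0.46 and -1.23, and 27 were negative with both. With the median of each array as reference the mitosis median with the overexpression negative control was 0.15, while in the other settings run it stayed below 0.

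Tk1, the salvage kinase for thymidine, was at 2.34 on normal, -0.03 with the overexpression and -0.59 with the knockdown negative control, or 5.19-fold and 7.66-fold lower, and kept its call under all 10 settings. It was at -0.40 with Tmub1 overexpression and at 2.04 with Tmub1 knockdown, near normal. Aurkb, a kinase of the chromosomal passenger complex, was at -1.95 on normal and at -4.39, -4.49, -4.78 and -0.42 on the overexpression negative control, knockdown negative control, overexpression and knockdown arrays. Cenpa, the histone of centromeres, was at -1.56 and at -3.70, -3.90, -3.70 and -1.82. Tpx2, which nucleates spindle microtubules, was 3.42-fold and 3.32-fold lower, and Kif2c, a microtubule depolymerase, 2.98-fold and 3.57-fold; both calls ended with the array median, and that of Tpx2 also with normexp. Each of the 8 lower genes of these lists was highest of the transduced arrays with Tmub1 knockdown, and none passed on all 4 arrays. Cdk1, the mitotic kinase, was at 4.56 on normal and at 4.86 and 4.14, and Mcm7, of the replicative helicase, at 3.90, 3.85 and 3.88. Pclaf, a partner of the replication clamp, and Mxd3, a partner of Max, were lower outside these lists, by 5.97-fold and 5.50-fold, and by 8.77-fold and 7.66-fold.

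Of the mitosis genes with a listed promoter, the promoters of the 3 most lowered are shown because many such genes carry a cell cycle homology region. Aurkb and Tpx2, lower as well, had no promoter listed. Capitals mark TTTGAA on either strand. On GRCr8 they lie at chr6:31431553-31431802 (minus strand), chr5:135899213-135899462 (minus strand) and chr13:103760887-103761136 (minus strand).
Cenpa: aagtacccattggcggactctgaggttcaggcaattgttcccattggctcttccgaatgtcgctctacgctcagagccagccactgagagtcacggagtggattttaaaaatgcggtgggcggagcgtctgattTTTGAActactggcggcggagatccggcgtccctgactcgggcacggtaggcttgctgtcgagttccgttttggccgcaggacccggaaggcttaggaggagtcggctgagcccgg
Kif2c: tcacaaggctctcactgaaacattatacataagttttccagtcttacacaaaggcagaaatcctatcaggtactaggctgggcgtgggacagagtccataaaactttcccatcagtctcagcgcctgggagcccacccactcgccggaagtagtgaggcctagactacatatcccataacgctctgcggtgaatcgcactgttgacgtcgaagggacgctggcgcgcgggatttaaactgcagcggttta
Cenpf: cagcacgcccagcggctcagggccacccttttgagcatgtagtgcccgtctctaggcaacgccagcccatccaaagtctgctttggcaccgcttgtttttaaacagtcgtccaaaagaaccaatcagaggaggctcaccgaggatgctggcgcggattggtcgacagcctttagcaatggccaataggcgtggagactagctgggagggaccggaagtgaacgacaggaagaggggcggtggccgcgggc

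Of these Cenpa holds the letters, starting at position -116. They were in 16 of 32 listed mitosis promoters, in 3 of 39 replication promoters and in 16% of all promoters.

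Of 33 cholesterol and fatty acid synthesis genes 3 were lower and 0 higher with both, beside 5.77% lower of all genes, and the medians were -0.68 and -0.80. Dhcr7, the last enzyme of cholesterol synthesis, was at 0.87 on normal and at -1.70, -2.03, -1.68 and -2.0 on the transduced arrays, and Idi1, of the isoprenoid steps, at 3.0 and at 1.03, 1.09, 1.09 and 0.72. The transduced arrays lay within 0.37 log2 for both genes and below normal, and both calls held under all 10 settings. Fasn, the fatty acid synthase, was at 2.07, 2.17 and 2.46.

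Growth factor response and stress genes were higher in part. Of 36 immediate early and growth factor genes 11 were higher and 2 lower, beside 4.41% and 5.77% of all genes, with medians of 0.79 and 1.45. Etv5 and Dusp6, a target and a feedback inhibitor of ERK signalling, were at -0.67 and 0.34 on normal, 3.38 and 3.72 with the overexpression and 4.05 and 3.61 with the knockdown negative control. This was 16.5-fold and 26.3-fold for Etv5, whose other probe gave a mean difference of 1.25 log2, and 10.4-fold and 9.65-fold for Dusp6. Both genes were also above normal with the Tmub1 viruses, Etv5 at 4.88 and 2.24 and Dusp6 at 3.46 and 2.72. Egr2 and Fosl1, transcription factors of this response, were 7.26-fold and 9.06-fold, and 3.52-fold and 8.27-fold higher. The lower members Dusp2 and Fosl2 lost their calls under 6 settings each. The list was drawn up with values of these arrays known, as were the others.

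In the list of the ATF4 amino acid response, which answers to amino acid shortage, and of aminoacyl-tRNA synthetases 9 of 40 genes were higher and 1 lower, beside 4.41% and 5.77% of all genes, with medians of 0.95 and 0.98. Asns, which makes asparagine, was at 2.37 on normal and at 4.66, 4.16, 4.25 and 4.36 on the transduced arrays, 4.89-fold and 3.44-fold higher with the negative controls. Ddit3, the stress factor CHOP, was 3.26-fold and 6.85-fold higher, a call that ended with quantile normalization, cyclic loess and the authors' table. Atf3, a stress transcription factor, was 5.84-fold and 11.2-fold higher, and the hormone Fgf21 8.54-fold and 6.77-fold. Nupr1 and the cystine carrier Slc7a11 were 4.27-fold and 5.53-fold, and 4.43-fold and 6.26-fold higher. Of the endoplasmic reticulum chaperones and degradation genes 0 of 27 were higher and 1 lower, with medians of 0.40 and 0.57. Of 28 genes of DNA damage response and cell cycle arrest 2 were higher, a share near the 4.41% of all genes: Gadd45a, a DNA damage response gene, by 6.05-fold and 13.9-fold, and Rb1, the restraint on E2F, by 3.11-fold and 3.46-fold.

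In the insulin-like growth factor list 3 of 18 were higher and 0 lower, beside 4.41% and 5.77% of all genes. The medians were 0.81 and 0.33. H19, the imprinted RNA beside Igf2, was at -1.07 on normal and at 2.68, 3.11, 2.44 and 2.34 on the transduced arrays, and the binding protein Igfbp6 was 6.31-fold and 7.62-fold higher. Irs2, an insulin receptor substrate, was 3.20-fold and 3.88-fold higher, while Igf2r, the receptor that clears Igf2, was at 4.68, 4.74 and 4.70. Vegfa, the vascular growth factor, was 10.6-fold and 8.29-fold higher by its brightest probe, and this call ended when its 4 probes were averaged. It was 1 of 3 higher in the glycolysis and hypoxia list of 29, beside 4.41% of all genes. Gapdh, of that list, was at 5.64, 5.65 and 5.82. In the NRF2 list 2 of 26 were higher, Gsta1 and Srxn1, enzymes of detoxification and peroxide defence, at 3.38-fold and 3.09-fold, and 3.42-fold and 3.07-fold, beside 4.41% of all genes. The call for Gsta1 ended with quantile normalization, cyclic loess and the authors' table.

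Genes of basic cell upkeep were mostly within the threshold under the 75th percentile scaling. The lists held 72 ribosomal protein, 33 proteasome, 55 respiratory chain, 21 heat shock and 22 apoptosis genes. None was 2.5-fold from normal in the same direction with both viruses, beside 4.41% higher and 5.77% lower of all genes. In the brightest of the 5 groups, from a mean level of 1.58 up, 2.87% were higher and 0.15% lower. The median level on normal was 6.50 for the ribosomal protein and -0.83 for the apoptosis list. The ribosomal protein medians were 0.68 with the overexpression and 0.13 with the knockdown negative control. They were 0.01 and -0.03 with quantile normalization, -0.11 and -0.09 with cyclic loess, and 0.69 and 0.16 with normexp. With the median of each array they were 1.28 and 0.57. That setting called 31 of the 72 higher with the overexpression and 0 with the knockdown negative control. It also called 5 apoptosis, 2 heat shock and 1 respiratory chain genes higher with both. Rps2 was at 6.60 on normal and 6.65 with each negative control. Tmub1 was at 0.13 on normal, 0.43 with the overexpression and 0.45 with the knockdown negative control.

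**Figure D5:**
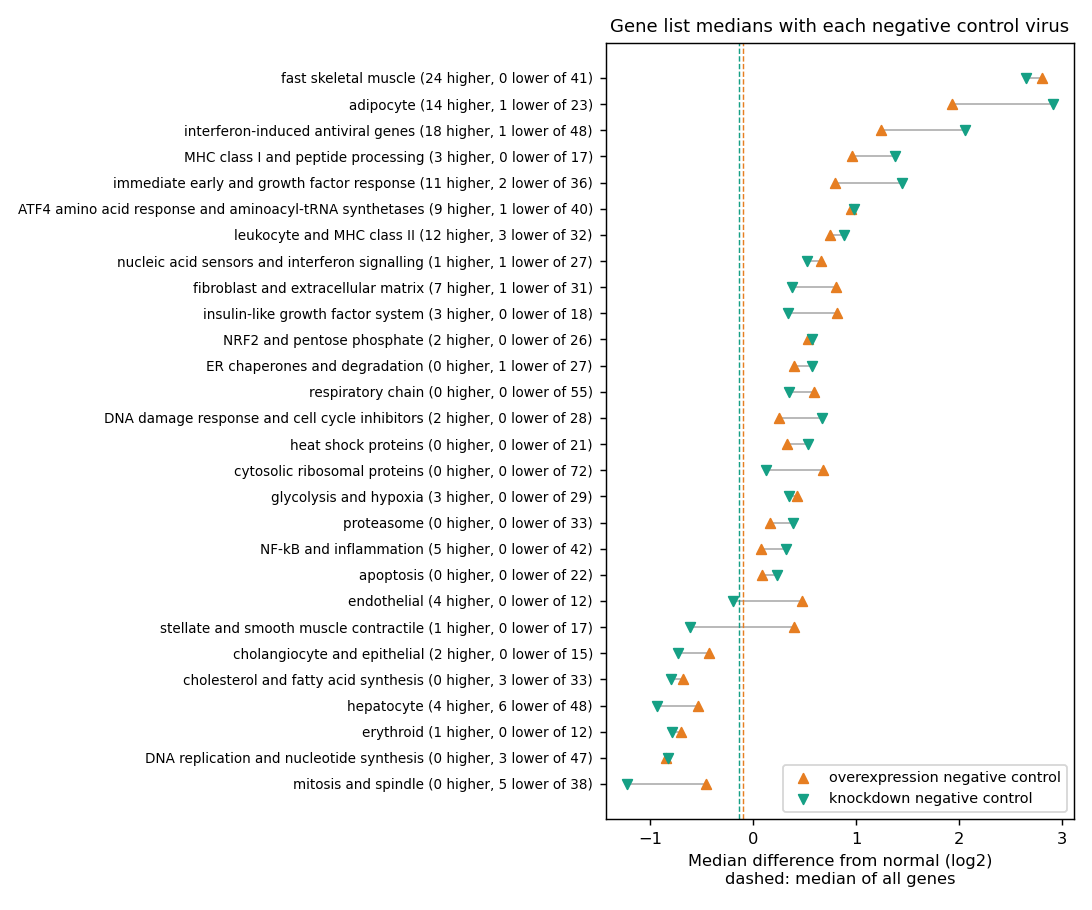
Median difference from normal cells (log2) over the members of each of 28 gene lists, with the overexpression negative control (orange) and the knockdown negative control (green); dashed lines are the medians of all genes (-0.10 and -0.14), and brackets give the members called with both. The muscle list has medians of 2.80 and 2.66 and the adipocyte list 1.93 and 2.92, against -0.46 and -1.23 for mitosis.

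Outside the lists the largest lower gene was Krt17, a keratin of stressed epithelia. It was at 1.34 on normal and at -2.35, -4.46, -3.56 and -1.06 on the overexpression negative control, knockdown negative control, overexpression and knockdown arrays, or 13.0-fold and 55.9-fold lower with the negative controls, under all 10 settings. Ngef, an exchange factor of neurons, was 6.03-fold and 5.38-fold lower, and Snap25 and Rem2, of vesicle fusion and calcium channel control, were 6.29-fold and 5.81-fold, and 6.08-fold and 5.77-fold lower, calls that ended with normexp and, for Snap25, with the mean of its probes. Mep1a, a membrane protease, was at least 10.7-fold and 15.0-fold lower. Of the 741 lower genes 185 have a placeholder symbol or belong to large paralog families such as odorant receptors, against 7 of the 566 higher ones. Of 39 named genes lower with both, 8 kept their call under all 10 settings (Krt17, C1h11orf86, Dhcr7, Pclaf, Ngef, Tk1, Cyp2e1 and Idi1), and of 78 named genes higher with both 44 did.

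Some genes were far from normal with 1 virus and close to it with the other. Cfl1, which severs actin filaments, was 10.2-fold lower with the overexpression negative control and at 1.02-fold with the knockdown one, and the metalloprotease Adamts9 was 5.18-fold higher and 1.18-fold away. Nqo1, a quinone reductase, was 5.63-fold higher with the knockdown negative control and 1.13-fold away with the other, and Smtnl2, a smoothelin-like protein, 9.70-fold lower and 1.11-fold away; with the mean of its probes Smtnl2 was lower with both. Txndc9, a thioredoxin domain protein with a single probe, was at 1.53 on normal, 1.69 with the overexpression negative control and -8.09 with the knockdown negative control, where it was not well above background. It was at 1.65 and 1.19 on the Tmub1 arrays, so that 1 array alone was low.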

How the data were processed

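Total RNA of BRL-3A cells was labelled with Cy3 from 1 µg and hybridized to single-colour Agilent arrays, per the labels. The deposited scanner files hold intensity values that the scanner software had background-subtracted and detrended, unscaled between arrays; per the file headers it was Agilent Feature Extraction 11.0.1.1, while the submitters' processing notes name 9.1. The authors' deposited table is in log2 units with a median of 6.685 in each column; how it was normalized is not stated, and each column was most like its own array.

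Control spots and outlier spots were left out, spots of a probe averaged, log2 taken and each array's 75th percentile over 30164 probes subtracted. Probes were named through RefSeq accessions: 17896 had 1 gene and 12268 none. A gene was read from its brightest probe of the 3 arrays. The call rule was run on simulated arrays made from the normal array and scanner error, with known differences added. Recovery was required of rises but not of falls. The simulated arrays held no scan difference and no trend with brightness, so the run cannot speak to either. Tools were Python 3.11.15, pandas 2.3.3, R 4.3.3 and limma 3.58.1. The files hold pixel medians, so normexp (offset 50) used median signals.

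Each group had 1 array, so no test was made. Members, lists and the naming rule were chosen with earlier results of these data known. Named were, without placeholder and paralog symbols and genes whose probes differed in sign by over 1 log2, the 12 largest per direction, up to 4 per direction known by a bound, up to 6 called members per list and direction with the 2 nearest to no difference, genes opposite or past the threshold with 1 virus, and Tmub1, Igf2 and Igfbp2; other genes were named after their values were seen. Alternatives were quantile normalization, cyclic loess, other reference percentiles, normexp, the authors' table, the filter, the fold, the probe rule and the outlier spots. Depth does not apply to arrays; their number limits the precision. Some genes are not reported here.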

Additional observations from a re-analysis of the deposited data

Results flagged for a closer look

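The genes below were past 2.5-fold in opposite directions with the 2 negative control viruses; with 1 array each, the difference between the viruses was not tested. Txnrd1, the thioredoxin reductase, was 15.2-fold lower with the overexpression and 3.07-fold higher with the knockdown negative control, 5.55 log2 apart. Morf4l2, a chromatin protein, was 9.40-fold lower and 2.94-fold higher, 4.79 log2 apart. Axin2, a target and inhibitor of Wnt signalling, was 4.32-fold lower and 3.32-fold higher, 3.84 log2 apart. Hif1a, the hypoxia factor, was 4.16-fold lower and 2.80-fold higher, 3.54 log2 apart. Lingo2, a membrane protein, was 2.53-fold higher and 3.35-fold lower, a difference of -3.08 log2. Txnrd1 was at -3.08 with Tmub1 overexpression and at 2.35 with Tmub1 knockdown, each on the side of its own negative control.

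Probes without a matched gene also carried signal that no comparison above used. Of 10478 such probes well above background on at least 1 of the 3 arrays, 133 (1.27%) were 2.5-fold higher and 793 (7.57%) lower with both negative controls. Among 12847 genes that could be read with both, each from its brightest probe, 4.41% were higher and 5.77% lower. The probes without a gene were counted singly and not limited to readable ones, so the 2 sets of shares have unlike bases.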

How the results depend on the processing

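No paired analysis was possible because every group has replicate 1 only. The counts of genes past the threshold were 2535 with the overexpression and 2334 with the knockdown negative control, 1307 with both and 1048 between the 2 controls. In that order they were 4379, 3805, 2360 and 2081 at 2-fold, 812, 848, 461 and 286 at 4-fold, and 792, 746, 351 and 389 with normexp. With the overexpression negative control the count was 1624 with quantile normalization, 1502 with cyclic loess, 1580 in the authors' table and 4037 with no filter on dim probes. With both it was 807 with cyclic loess, 817 with probes above background on all 3 arrays, 2065 with no filter and 865 when all 4 transduced arrays had to pass. The other counts stayed within 1.5-fold. The split between higher and lower calls turned with the scaling: with the overexpression negative control 41.1% were higher, but 69.5% with quantile normalization and 86.9% with the array median; between the 2 controls it was 56.6%, but 39.6% with the array median and 40.9% with normexp.

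Of 28 gene lists, 11 had medians at least 1.5-fold from that of all genes in the same direction with both viruses; with normexp 4 did, and 8 to 13 in the other settings. The array median moved the median over all genes from -0.13 to 0.39 log2. No named gene called with both viruses and no list at least 1.5-fold away changed direction in the settings run. Signal over background limits the dim genes, since the lowest level called above background was -7.20 on the normal array and -5.72 and -5.92 on the negative controls. The causes were not tested.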
